A study of Mus musculus with 2 samples.

Results

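The 5 fatty acid binding protein (FABP) genes *Fabp7*, *Fabp5*, *Pmp2*, *Fabp3* and *Fabp4* were examined in the single-cell RNA sequencing of L4 and L5 dorsal root ganglia (DRG). They were taken by gene symbol from the 32285 genes listed in the files. All 5 were found, and all 5 passed the filter on low counts. The experiment holds 2 samples, replicates 1 and 2, both from naive female C57BL/6 mice of 3 months that carried no transgene and received no treatment or injury. Ganglia were dissociated with papain and collagenase, live cells were sorted, and transcripts were captured by their 3′ ends in droplets, with a barcode for each droplet and a unique molecular identifier (UMI) for each transcript. As both samples are of 1 condition, levels were compared between cell types, and nothing in the labels says how many animals each sample pooled.

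FABPs are small cytosolic proteins that fold into a barrel around a single lipid. They take up long-chain fatty acids, which dissolve poorly in water, and carry them to the mitochondria for oxidation, to the endoplasmic reticulum for storage or membrane synthesis, or to nuclear receptors such as the PPARs. Most members were named after the tissue where they were found: *Fabp7* is the brain type, expressed in radial glia and astrocytes and used as a marker of satellite glial cells (SGCs), the glia that wrap sensory neuron somas. *Fabp5* is the epidermal type and *Fabp3* the heart type. *Fabp4* is the adipocyte type, also found in capillary endothelium, and *Pmp2* encodes the P2 protein of peripheral myelin.

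In the GENCODE M21 annotation of GRCm38, each of the 5 genes has 4 exons and a coding sequence of between 396 and 405 bases. *Fabp7* lies at chr10:57784881-57788450 on the plus strand and *Fabp3* at chr4:130308595-130315463 on the plus strand. The other three lie on chromosome 3: *Fabp5* at chr3:10012548-10016607 on the plus strand, *Pmp2* at chr3:10179851-10183929 and *Fabp4* at chr3:10204088-10208576, both on the minus strand. *Pmp2* and *Fabp4* are 20158 bases apart with the testis-expressed *Fabp9* between them. The coding sequences were between 55.3% (*Fabp7* and *Fabp5*) and 71.2% (*Pmp2* and *Fabp4*) identical, and 136 of 405 aligned positions held the same base in all 5. Shown are the 60 aligned coding bases most alike in the family, in exon 1, with capitals where all 5 genes have the same base, which was so at 27 positions.
Fabp7, chr10:57785022-57785081, plus strand: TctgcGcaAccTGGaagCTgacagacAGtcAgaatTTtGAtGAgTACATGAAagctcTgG
Pmp2, chr3:10183747-10183806, minus strand: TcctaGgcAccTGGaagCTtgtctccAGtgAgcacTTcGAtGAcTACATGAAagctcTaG
Fabp3, chr4:130308791-130308850, plus strand: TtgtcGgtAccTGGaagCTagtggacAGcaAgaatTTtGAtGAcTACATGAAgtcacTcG
Fabp4, chr3:10208439-10208498, minus strand: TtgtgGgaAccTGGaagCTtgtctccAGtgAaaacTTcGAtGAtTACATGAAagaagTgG
Fabp5, chr3:10012659-10012718, plus strand: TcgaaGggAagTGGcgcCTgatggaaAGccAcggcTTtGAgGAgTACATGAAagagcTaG

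The 60 coding bases least alike, in exon 2, are shown for contrast with the same use of capitals, and here only 16 positions were shared.
Fabp7, chr10:57785545-57785604, plus strand: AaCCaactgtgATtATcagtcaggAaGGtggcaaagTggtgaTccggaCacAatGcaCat
Pmp2, chr3:10182456-10182515, minus strand: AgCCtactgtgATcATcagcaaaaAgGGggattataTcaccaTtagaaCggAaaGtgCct
Fabp3, chr4:130312330-130312389, plus strand: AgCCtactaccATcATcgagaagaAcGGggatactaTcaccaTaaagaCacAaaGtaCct
Fabp4, chr3:10206024-10206083, minus strand: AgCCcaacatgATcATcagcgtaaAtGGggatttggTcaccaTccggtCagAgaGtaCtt
Fabp5, chr3:10015010-10015069, plus strand: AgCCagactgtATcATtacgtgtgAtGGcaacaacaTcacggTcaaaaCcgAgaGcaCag

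The longest run of identical bases between the transcripts of any 2 members was 23 bases (*Pmp2* and *Fabp4*), so reads of 50 bases could not match 2 members alike. Other annotated sequences were closer. *Gm37389*, a gene model that overlaps *Pmp2* on the same strand, held 1177 of the 1358 runs of 50 bases of the *Pmp2* transcript. The processed pseudogene *Fabp3-ps1* held 226 of the 774 runs of *Fabp3*, and *Gm6166*, the closest of 5 pseudogenes to *Fabp5*, held 184 of 938. None of these is a row of the files. *Zcchc17* overlaps the last exon of *Fabp3* on the other strand.

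The libraries held 119101743 and 128668771 UMIs in replicates 1 and 2. After filtering, 16256 cells remained, of which 14226 fell into 8 types named from markers that exclude the 5 genes: 3490 and 3334 SGCs in replicates 1 and 2, named from *Kcnj10*, *Bcan*, *Ptprz1* and *Fbln5*, 1566 and 1594 myelinating Schwann cells, 640 and 712 non-myelinating Schwann cells, 55 and 54 neurons, 195 and 239 endothelial cells, 529 and 759 fibroblasts, 385 and 321 mural cells, and 194 and 159 macrophages. In 7 types every marker was highest in its own type, and in non-myelinating Schwann cells 5 of 7 markers were. The genes of the family and of lipid handling were kept out of the clustering. The libraries shared 135 barcodes of called cells, and 59 of the 109 neurons had such a barcode with a copy in the other library that was between 148 and 267 times shallower and was not retained. UMIs were summed per sample and type and compared with edgeR's quasi-likelihood test with Benjamini-Hochberg adjustment over 17859 genes. The paper describes the samples as biological replicates, whereas the labels do not say whether they came from separate animals. The p-values measure only the spread between these 2 samples.

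*Fabp7* and *Fabp5* both peaked in SGCs, and each of the other members peaked in a type of its own. A level here is the UMI count of a gene over the TMM-scaled total of its profile, in the usual unit CPM, and because UMIs were counted from the 3′ end, they were not divided by transcript length. *Fabp7* was highest in SGCs, with 11494 and 11874 CPM (11684 ± 268, mean ± SD, n = 2). *Fabp5* was also highest in SGCs, with 604 and 576 CPM (590 ± 19.7). *Pmp2* was highest in myelinating Schwann cells, with 35.2 and 34.4 CPM (34.8 ± 0.546). The levels of these glial members lay close together in both samples. *Fabp3* was highest in neurons, with 66.7 and 98.3 CPM (82.5 ± 22.3), and *Fabp4* in endothelial cells, with 28.7 and 86.5 CPM (57.6 ± 40.9). The vascular and neuronal members thus varied more between the samples. In replicate 2, however, a single neuron held 32.9% of the neuronal *Fabp3* UMIs, and a single endothelial cell held 77.6% of the endothelial *Fabp4* UMIs. For all 5 genes, both samples of the highest type lay above both samples of every other type.

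**Figure D1:**
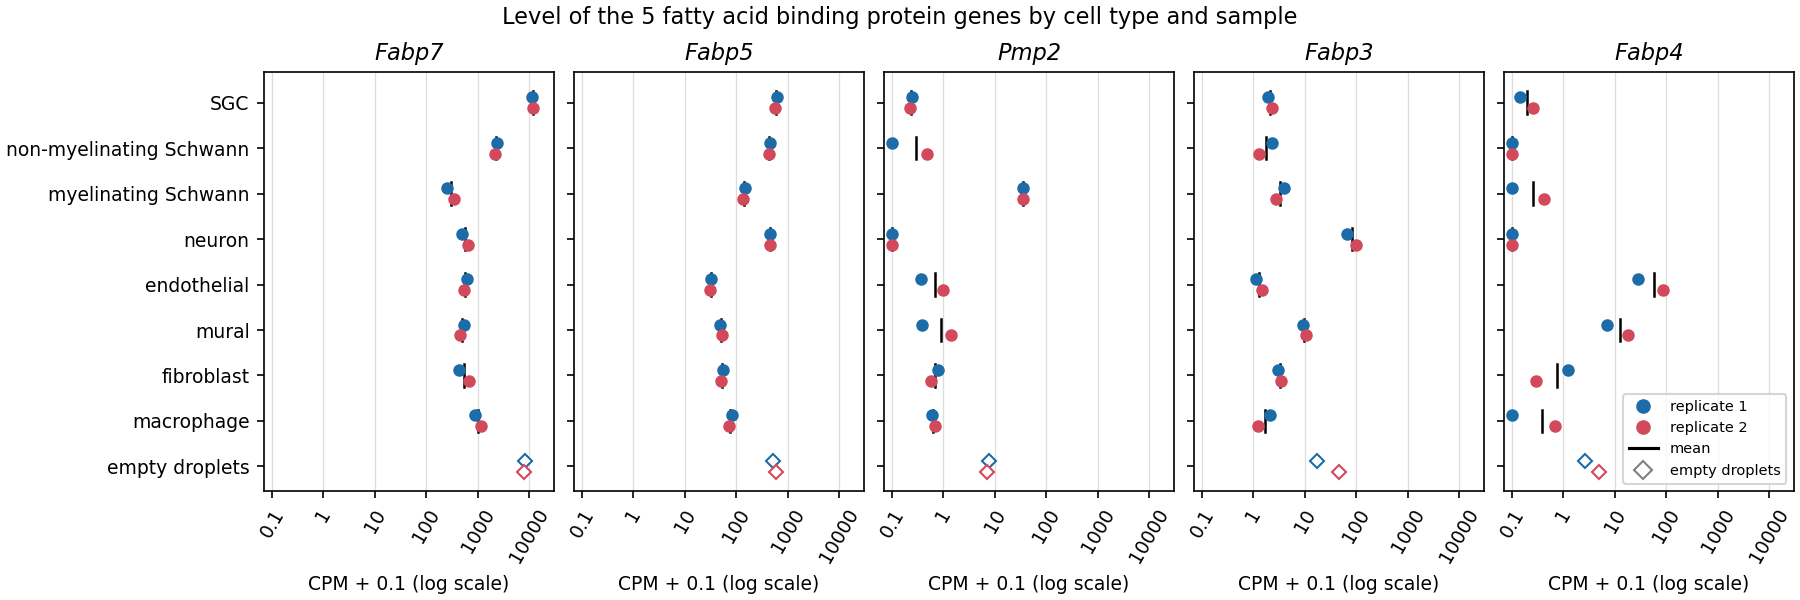
Level of each of the 5 genes in the 8 cell types and in empty droplets, as CPM plus 0.1 on a log scale, with replicate 1 in blue, replicate 2 in red, a bar at their mean and open diamonds for empty droplets. *Fabp7* and *Fabp5* are highest in SGCs, *Pmp2* in myelinating Schwann cells at 35.2 and 34.4 CPM, *Fabp3* in neurons and *Fabp4* in endothelial cells, where the 2 samples lie apart.

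Against the mean of the log2 levels of the other 7 types, *Fabp7* and *Fabp5* were higher in SGCs and *Fabp3* was lower. Of all genes tested, 32.9% were higher and 23.4% lower in that comparison. *Pmp2* was higher and *Fabp7* lower in myelinating Schwann cells (background 26.8% and 24% of genes). *Fabp7* and *Fabp5* were higher and *Fabp3* lower in non-myelinating Schwann cells (19.6% and 17.6%). In neurons *Fabp3* and *Fabp5* were higher and *Fabp7* and *Pmp2* lower (37.2% and 30.7%). The *Pmp2* call in neurons sets 0 UMIs against at most 1.32 CPM in every type but myelinating Schwann cells. Its size depends on the small prior count that the fit adds, and it is not read as a difference of neurons. In endothelial cells *Fabp4* was higher, and *Fabp7*, *Fabp5* and *Fabp3* were lower (26.6% and 24.9%). Mural cells, the pericytes and smooth muscle cells of vessel walls, had *Fabp4* and *Fabp3* higher and *Fabp7* and *Fabp5* lower (21.9% and 19.6%). *Fabp7* and *Fabp5* were lower in fibroblasts (26.8% of genes higher and 20.9% lower), and *Fabp5* and *Fabp3* in macrophages (23.2% and 26.5%). SGCs and non-myelinating Schwann cells thus had the same calls. With shares of called genes this large, a call by itself sets no member apart from other genes.

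In SGCs *Fabp7* was the 7th most abundant of 23269 genes detected. Its log2 difference from the mean of the other types was 4.12 (SE 0.11, adjusted p = 2.05e-15), the 95th largest of 5874 genes called higher. The next named type in the order was the non-myelinating Schwann cell, with 2356 and 2167 CPM. It was 2.37 lower on the log2 scale (SE 0.20, adjusted p = 4.02e-08, with 19.2% of all genes higher and 13.6% lower in SGCs in this comparison). Non-myelinating Schwann cells ensheathe small-caliber axons, and *Fabp7* was the 24th of 18846 genes there. Macrophages followed with 885 and 1154 CPM, below non-myelinating Schwann cells by 1.15 (adjusted p = 7.92e-05) and above neurons by 0.84 (adjusted p = 0.00107). Neurons had 493 and 647 CPM, endothelial cells 603 and 532, fibroblasts 427 and 667, and mural cells 534 and 449. Values of these 4 types overlapped, and no neighbours among them differed beyond the spread between samples (adjusted p = 0.99, 0.858 and 0.584 in the order given). Myelinating Schwann cells, the glia that wrap large-caliber axons, had the lowest level at 257 and 346 CPM, below mural cells by 0.71 (adjusted p = 0.00612). These levels are sums over cells. The richest cell held 2.96% and 2.33% of the *Fabp7* UMIs of myelinating Schwann cells. In macrophages, neurons, endothelial cells, fibroblasts and mural cells it held between 6.03% and 26.7%. By the median *Fabp7* share of a cell's UMIs, myelinating Schwann cells were instead above each of these types in each sample. The order below non-myelinating Schwann cells thus depends on the measure.

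The order of *Fabp7* below the glia has to be read beside the RNA of empty droplets, taken from the barcodes ranked 45000 to 90000 by UMIs. *Fabp7* made up 8227 and 7776 CPM of that RNA, more than in any type but the SGCs. An upper estimate of the share of such RNA in each type was made from 35 to 47 markers of other types. By this estimate, empty-droplet RNA would give 3.94% and 3.14% of the *Fabp7* level of SGCs and 40.0% and 36.4% of that of non-myelinating Schwann cells. In the other 6 types it would give between 134% and 499%, that is, more *Fabp7* than was measured. The number of *Fabp7* UMIs per UMI of the SGC markers *Kcnj10*, *Bcan* and *Ptprz1* was 5.60 and 5.75 in SGCs. It was 8.25 and 7.91 in empty droplets, higher than in SGCs. The other types ranged from 2.98 and 3.50 in myelinating Schwann cells to 9.05 and 5.66 in neurons, with 3.45 and 3.27 in non-myelinating Schwann cells, 4.11 and 4.33 in macrophages, 4.22 and 5.33 in fibroblasts, 4.95 and 5.07 in mural cells and 5.03 and 5.20 in endothelial cells. This ratio thus differed between empty droplets and most types. In those 6 types the estimate, which is an upper one, exceeded the measured level. It therefore cannot tell expression from empty-droplet RNA there, and their *Fabp7* is read neither as expression nor as its absence.

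**Figure D2:**
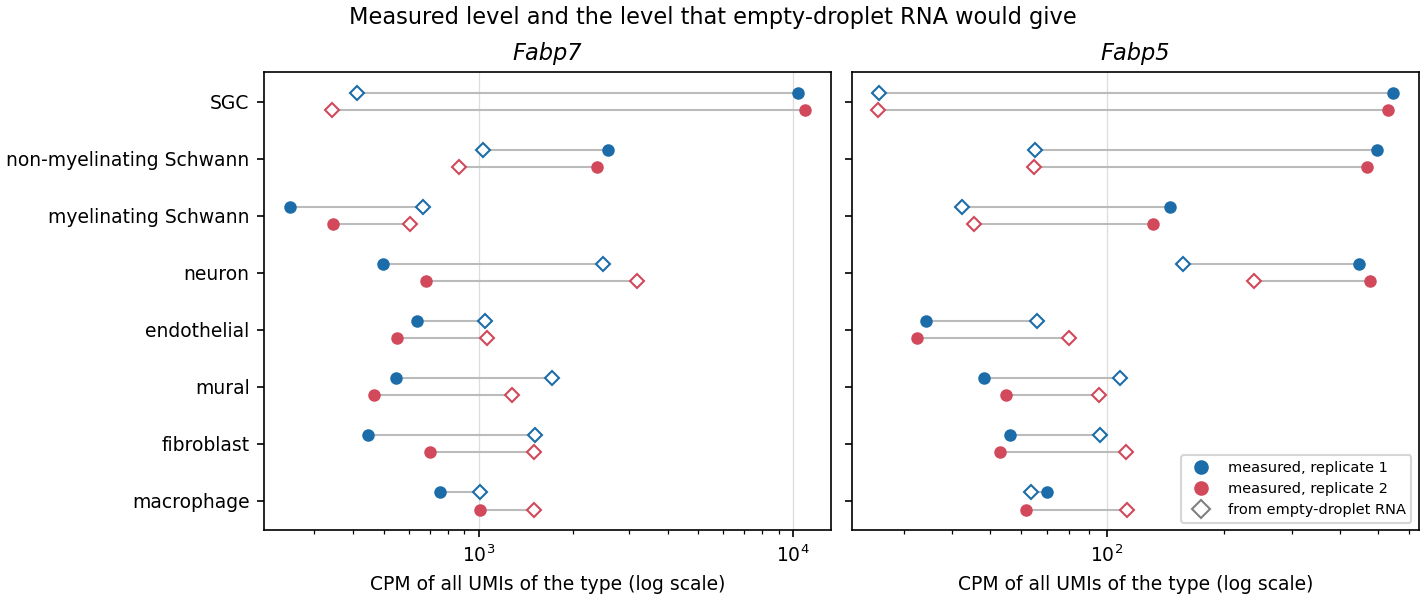
Measured level of *Fabp7* and *Fabp5* (filled circles) and the level that the estimated share of empty-droplet RNA would give (open diamonds) in each cell type, in unscaled CPM on a log axis, with replicate 1 in blue, replicate 2 in red and a line joining the values of a sample. In SGCs and non-myelinating Schwann cells the circles lie above the diamonds for both genes, and in endothelial cells, fibroblasts and mural cells they lie below them for both.

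Among single cells thinned to 1000 UMIs each, 97.1% of SGCs in replicate 1 (exact Clopper-Pearson 95% interval 96.5% to 97.7%) and 97.6% in replicate 2 (97.1% to 98.1%) held a *Fabp7* UMI, and 99.9% did in both samples without thinning. In endothelial cells, whose *Fabp7* did not exceed the estimate for empty-droplet RNA, 15.5% and 26.2% did after thinning. The median depth was 14716 and 15655 UMIs for SGCs and 16191 and 15196 for endothelial cells. Non-myelinating Schwann cells were intermediate at 68.7% and 66.5%. Intervals of this kind cover counting error only.

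SGCs differed among themselves in how much *Fabp7* they held. Per 10000 UMIs of a cell, the median was 90.8 and 94.5 UMIs, with a 10th percentile of 24.6 and 31.6 and a 90th percentile of 174 and 181. The 4 clusters of SGCs were ordered alike in both samples. *Bcan*, a proteoglycan, was among the 10 leading genes of all 4, and *Hes5*, an effector of Notch signaling, among those of clusters 0 and 7. Cluster 0 had medians of 123 and 126, and cluster 7 of 74.8 and 86.3. Clusters 6 and 3, both led by *Ednrb*, the endothelin B receptor, had 66.6 and 74.0, and 48.9 and 56.4. Cluster 0 was also the deepest, with a median of 18644 UMIs over both samples, against 15054 in cluster 7, 11370 in cluster 6 and 11674 in cluster 3. Cluster 2, with 857 and 770 cells led by *Pou3f1*, a transcription factor of promyelinating Schwann cells, was left without a name, since no marker of a type stood among its 10 leading genes. The SGC markers *Kcnj10*, *Ptprz1* and *Bcan* were among its 50 leading genes. Together they had 1217 and 1221 CPM (unscaled) there, against 1858 and 1899 in SGCs and 748 and 729 in non-myelinating Schwann cells. The *Fabp7* medians of cluster 2 were 20.6 and 19.8, between the lowest SGC cluster and the non-myelinating Schwann cells at 13.3 and 12.2. No test was made between clusters of the same samples.

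**Figure D3:**
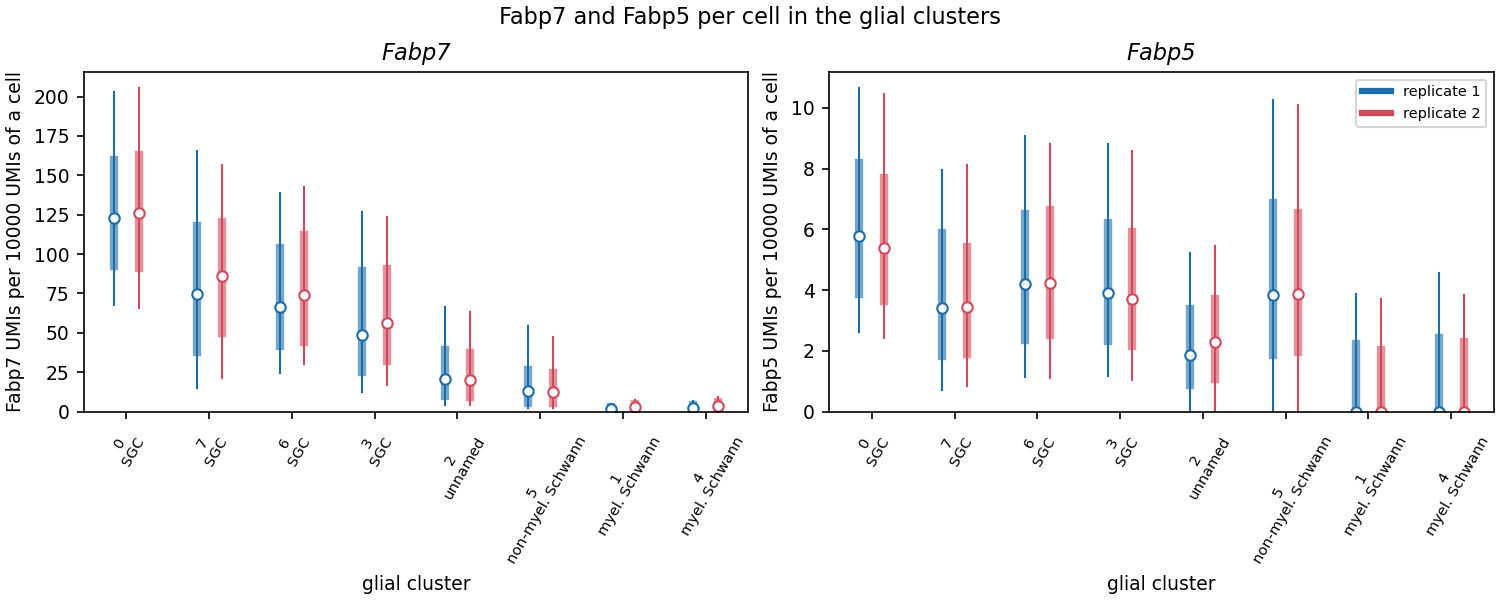
*Fabp7* and *Fabp5* UMIs per 10000 UMIs of a cell in the glial clusters of each sample (replicate 1 in blue, replicate 2 in red), with the median as a circle, the 25th to 75th percentiles as a box and the 10th to 90th percentiles as a line. *Fabp7* falls from cluster 0 (medians 123 and 126) to the myelinating Schwann clusters 1 and 4, and *Fabp5* is near 4 in non-myelinating Schwann cells and in most SGC clusters.

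Across the 3490 and 3334 SGCs, the *Fabp7* level of a cell rose with that of *Acsbg1*, an acyl-CoA synthetase (Spearman's rho 0.469 and 0.462), and *Hes5* (0.385 and 0.419). It fell with *Pou3f1* (-0.301 and -0.269) and *Ednrb* (-0.160 and -0.186). These are descriptions over cells of the same library, and *Fabp7* also rose with the depth of the cell (0.393 in both samples).

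*Fabp5* was the broadest of the 5 genes. In SGCs its 604 and 576 CPM placed it 233rd of 23269 genes, 2.44 above the mean of the other types on the log2 scale (SE 0.06, adjusted p = 4.2e-16). Neurons had 444 and 455 CPM and non-myelinating Schwann cells 453 and 425 CPM, 1.99 (adjusted p = 3.25e-15) and 1.957 (adjusted p = 4.19e-14) above the mean of the other types. SGCs were above neurons by 0.39 (SE 0.09, adjusted p = 5.86e-04, with 32% of all genes higher and 34.2% lower in SGCs), and both SGC samples lay above all neuronal and Schwann samples. Neurons and non-myelinating Schwann cells overlapped and were not told apart (difference 0.03, adjusted p = 0.771). With equal numbers of cells per type, the difference between SGCs and neurons was 0.27 (adjusted p = 0.305).

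Below these came myelinating Schwann cells with 149 and 133 CPM, 1.64 under non-myelinating Schwann cells (adjusted p = 1.05e-10). Macrophages had 82.2 and 70.4 CPM, fibroblasts 54.2 and 50.6, mural cells 47.3 and 53.0, and endothelial cells 32.3 and 31.3. Each step of this order passed the test except that between fibroblasts and mural cells (0.06, adjusted p = 0.704). *Fabp5* made up 521 and 584 CPM of empty-droplet RNA. That RNA would give 4.75% and 4.87% of the level in SGCs, 13.2% and 13.9% in non-myelinating Schwann cells, 29.1% and 34.5% in myelinating Schwann cells, and 35.1% and 49.99% in neurons. In macrophages it would give 91.3% and 182%, and in fibroblasts, mural and endothelial cells between 170% and 246%. The lower end of the order was thus near or below this upper estimate, which cannot tell expression from background there.

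The ratio of *Fabp5* to *Fabp7* UMIs was 0.0525 and 0.0485 in SGCs and 0.192 and 0.196 in non-myelinating Schwann cells, the types whose *Fabp7* exceeded the estimate for empty-droplet RNA. In empty droplets it was 0.0633 and 0.0751. In thinned SGCs, 37.9% (36.2% to 39.5%) and 39.1% (37.4% to 40.8%) held a *Fabp5* UMI (97.0% and 97.4% unthinned), against 35.6% and 35.3% of non-myelinating Schwann cells, 27.3% and 27.8% of neurons, and 3.11% and 2.26% of endothelial cells. Between SGC clusters the medians of *Fabp5* ran from 3.40 in cluster 7 to 5.80 in cluster 0 per 10000 UMIs in replicate 1. Non-myelinating Schwann cells, at 3.84 and 3.87, lay within that range. Within SGCs the levels of the 2 genes rose together only weakly (rho 0.217 and 0.210).

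Members of the family made up 1.10% and 1.14% of all UMIs of SGCs, and *Fabp7* was 95.0% and 95.4% of these. In non-myelinating Schwann cells the 5 genes made up 0.308% and 0.285% of UMIs, in neurons 0.101% and 0.126%, and in myelinating Schwann cells 0.0435% and 0.0513%. Among retained cells, SGCs held 90.9% and 90.7% of all *Fabp7* UMIs and 76.1% and 74.9% of all *Fabp5* UMIs.

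By its share of UMIs, *Pmp2* was the member most restricted to a single type. Myelinating Schwann cells held 306 of 324 and 329 of 354 of its UMIs in retained cells (94.4% and 92.9%). The other types held at most 1.32 CPM in either sample, and neurons held no UMI, which allows up to 0.511 and 0.551 CPM (3 counts per library, counting error only). The log2 difference from the mean of the other types was 7.15 (SE 0.21, adjusted p = 4.04e-14), a fitted value that depends on the prior count because neurons were at 0. Against mural cells, the next type with 0.283 and 1.32 CPM, it was 5.49 (SE 0.40, adjusted p = 3.9e-09, with 22.9% of all genes higher and 23.7% lower in myelinating Schwann cells). None of the 6 other neighbouring pairs in the order passed the test. Empty-droplet RNA, with 7.41 and 6.79 CPM of *Pmp2*, would give 1.75% and 1.54% of the level in myelinating Schwann cells and between 81.4% and 530% in the types that held the gene otherwise.

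Although *Pmp2* ranked 13th of 4786 genes by log2 difference in myelinating Schwann cells, it was only the 4732nd gene by level there. A UMI of *Pmp2* was found in 178 of 1566 and 196 of 1594 myelinating Schwann cells (11.4% and 12.3%), against 7 of 3490 and 6 of 3334 SGCs (0.201% and 0.180%), which were deeper. After thinning it was 2.82% (2.05% to 3.76%) and 2.52% (1.80% to 3.41%) of myelinating Schwann cells, against 0 of 3490 and 0 of 3333 SGCs, which at that thinned depth allows a share of up to 0.086% and 0.09%. The 2 clusters of myelinating Schwann cells differed. Cluster 4 had 51.1 and 57.3 CPM and cluster 1 had 23.6 and 23.4 CPM, here without TMM scaling. Cluster 4 also had more *Ncmap*, a myelin protein gene (1886 and 1910 against 1298 and 1348 CPM), and less *Pou3f1* (591 and 669 against 863 and 928 CPM). Of the cells with at least 5 *Pmp2* UMIs, 8 and 7 lay in cluster 4 and 2 and 0 in cluster 1, and the richest cell held 9 and 23 UMIs.

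*Fabp3* was a neuronal gene in these data, with a second, lower level in mural cells. Neurons had 66.7 and 98.3 CPM from 395 and 562 UMIs, 5.03 above the mean of the other types on the log2 scale (SE 0.14, adjusted p = 1.36e-15). Mural cells had 9.07 and 10.2 CPM, 3.10 below neurons (SE 0.23, adjusted p = 1.8e-09, with 32.7% of all genes higher and 28.7% lower in neurons). Mural cells in turn lay 1.59 above myelinating Schwann cells, at 3.796 and 2.62 CPM (adjusted p = 4.31e-04). The remaining types had between 1.03 and 3.34 CPM, and no neighbours among them differed beyond the spread between samples. Empty-droplet RNA held 17.3 and 45.6 CPM of *Fabp3* and would give 7.75% and 18.1% of the level in neurons, and 38.7% and 70.5% in mural cells. *Zcchc17*, which overlaps *Fabp3* on the other strand, was at 73.3 and 78.7 CPM in neurons and between 40.7 and 61.2 CPM elsewhere.

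*Fabp3* was unevenly spread over the 109 neurons. Neurons were few but deep, with medians of 110283 and 92084 UMIs, and 74.5% and 77.8% of them held a *Fabp3* UMI. After thinning it was 7.27% (2.02% to 17.6%) and 9.26% (3.08% to 20.3%), against 0.143% and 0.270% of SGCs. The richest neuron, in replicate 2, held 185 *Fabp3* UMIs, which is 32.9% of the neuronal UMIs of that sample. It also held 397 UMIs of *Pvalb* and 306 of *Nefh*, which mark proprioceptors and large myelinated neurons. The next 4 neurons held 58, 55, 45 and 39 *Fabp3* UMIs, and each had between 131 and 145 UMIs of *Th*, the marker of C-fiber low-threshold mechanoreceptors.

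After this was seen, neurons were divided by *Th* and by *Calca*, a neuropeptide gene of peptidergic nociceptors. The 3 neurons of each sample with at least 50 *Th* UMIs had 193 and 183 CPM of *Fabp3* (unscaled). The 30 and 29 neurons with over 10 *Calca* UMIs had 28.4 and 35.1 CPM. The 22 and 22 others had 98.6 and 230 CPM, which includes the richest neuron in replicate 2. By these sums *Calca* neurons were the lowest group in both samples. The median was 3 and 2 *Fabp3* UMIs in *Calca* neurons and 4.5 and 1.5 in the others, so the raw count was lower in *Calca* neurons only in replicate 1. In replicate 2, 25 of 29 *Calca* neurons and 14 of 22 others held a UMI. These counts are not scaled to depth, and *Calca* neurons were deeper than the others in both samples, so they do not set the order per UMI. *Fabp5* was more even, with 742 and 693 CPM in *Th* neurons, 457 and 478 in *Calca* neurons and 344 and 364 in the others. Over all 109 neurons *Fabp3* fell with *Calca* (rho -0.397) and rose with *Ntrk3*, the neurotrophin-3 receptor (0.386), whereas *Fabp5* rose with *Th* (0.448). These are descriptions of cells from 2 libraries. The *Fabp7* of a neuron rose with *Apoe* (0.886) and *Kcnj10* (0.756), genes of SGCs.

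**Figure D4:**
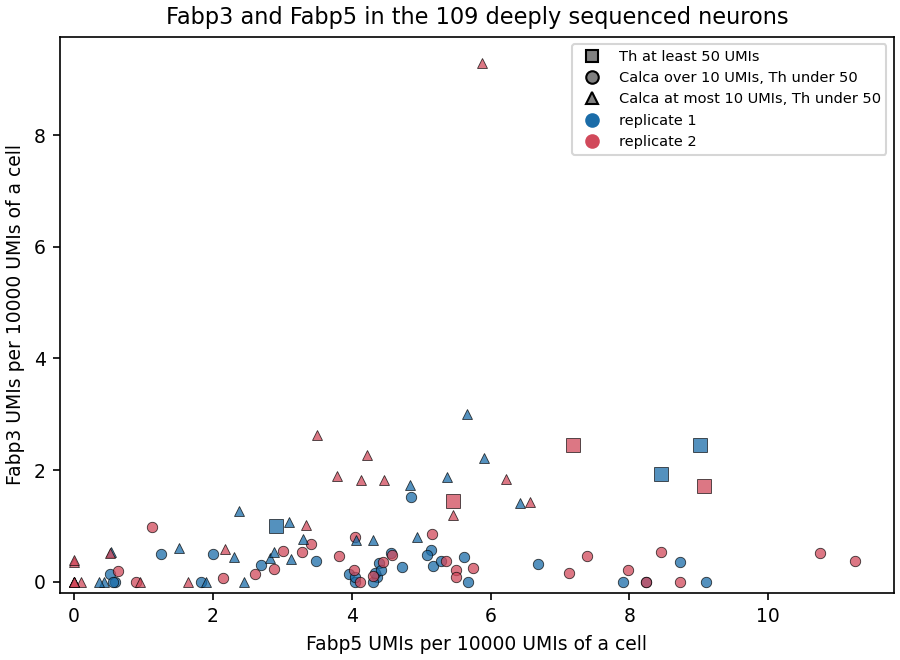
*Fabp3* (vertical axis) against *Fabp5* (horizontal axis) in the 109 neurons, both in UMIs per 10000 UMIs of the cell, in blue for replicate 1 and red for replicate 2. Squares are neurons with at least 50 *Th* UMIs, circles those with over 10 *Calca* UMIs and triangles those with at most 10, and the highest *Fabp3* point is the neuron of replicate 2 with 185 UMIs.

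The value for neurons depended on which barcodes were kept. A cluster of 429 shallow cells with neuronal markers and a mean of 832 genes was left out. It held all 59 of the shallow copies of barcodes of retained neurons in the other library. An alternative kept this cluster and also replaced the upper UMI cutoff within each type by a cutoff over all kept cells. Neurons, the deepest type, were the most exposed to that cutoff. The neuronal level of *Fabp3* was then 28.2 CPM and the difference from mural cells 1.57. The cluster itself held 10 and 17 *Fabp3* UMIs, against 395 and 562 in the retained neurons, and these changes were not tested apart. Without barcodes shared by both libraries, 22 and 28 neurons remained, with a mean of 59.2 CPM.

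*Fabp4* was found in very few cells. Endothelial cells had 28.7 and 86.5 CPM from 111 and 384 UMIs, and mural cells had 6.80 and 18.1 CPM from 24 and 55 UMIs. The samples of both types did not overlap, though replicate 2 was higher than replicate 1 in each. Endothelial cells were 8.37 above the mean of the other types on the log2 scale (SE 0.48, adjusted p = 4.67e-10) and 2.25 above mural cells (SE 0.50, adjusted p = 0.00171, with 21.3% of all genes higher and 21% lower in endothelial cells). Mural cells were 4.38 above fibroblasts (adjusted p = 6.1e-04). Non-myelinating Schwann cells and neurons held no UMI, which allows up to 0.729 and 0.641 CPM and 0.511 and 0.551 CPM, so that the first of these differences depends on the prior count. The remaining types had at most 1.12 CPM. Empty-droplet RNA, at 2.47 and 4.87 CPM, would give 1.03% and 0.744% of the endothelial level and 7.37% and 4.25% of the mural level.

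Only 13 of 434 endothelial cells held a *Fabp4* UMI, 5 of 195 and 8 of 239 (2.56% and 3.35%, or 1.04% and 1.36% after thinning). In replicate 2, 298 of the 384 UMIs (77.6%) were in a single cell, which was scored as a likely doublet. That cell also held 45 UMIs of *Cd36*, a fatty acid translocase, 40 of *Gpihbp1*, which anchors lipoprotein lipase to capillary walls, and 44 of *Cldn5*, the tight junction claudin, with 1 UMI of *Adipoq* and none of *Plin1*, which mark adipocytes. Without the richest cell of each type and sample, endothelial cells were 1.63 above mural cells (adjusted p = 0.00613). Without all cells scored as doublets the difference was 0.87 (adjusted p = 0.192), and with equal numbers of cells per type it was -0.63 (adjusted p = 0.643). The order of endothelial over mural cells was therefore not stable to the choice of cells.

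The 13 cells differed from the other endothelial cells in the genes of vessel type, given here unscaled and as a description. *Vwf*, which is high in veins and large vessels, was at 2572 and 1194 CPM in cells with *Fabp4* and at 190 and 163 CPM in cells without, although the 13 cells ranged from 0 to 93 *Vwf* UMIs among themselves. *Plvap*, of fenestrated capillaries and venules, was at 1637 and 881 against 264 and 211 CPM, and the water channel gene *Aqp1* at 1065 and 821 against 86.6 and 64.2 CPM. Genes of barrier endothelium went the other way, with *Cldn5* at 364 and 967 against 2364 and 2468 CPM and the glucose transporter gene *Slc2a1* at 39.0 and 133 against 496 and 647 CPM. *Fabp5* was also higher in the cells with *Fabp4*, at 351 and 207 against 27.4 and 26.2 CPM. All 5 of these cells held it in replicate 1, but only 4 of 8 did in replicate 2. There, 19 of its 31 UMIs were in the cell with 298 *Fabp4* UMIs, which was scored as a doublet. In mural cells, *Fabp4* was at 38.3 and 161 CPM in cluster 19 and at 4.39 and 1.91 CPM in cluster 9, and 38 of the 55 UMIs of replicate 2 (69.1%) were in a single cell with 295 UMIs of *Acta2*, the smooth muscle actin.

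**Figure D5:**
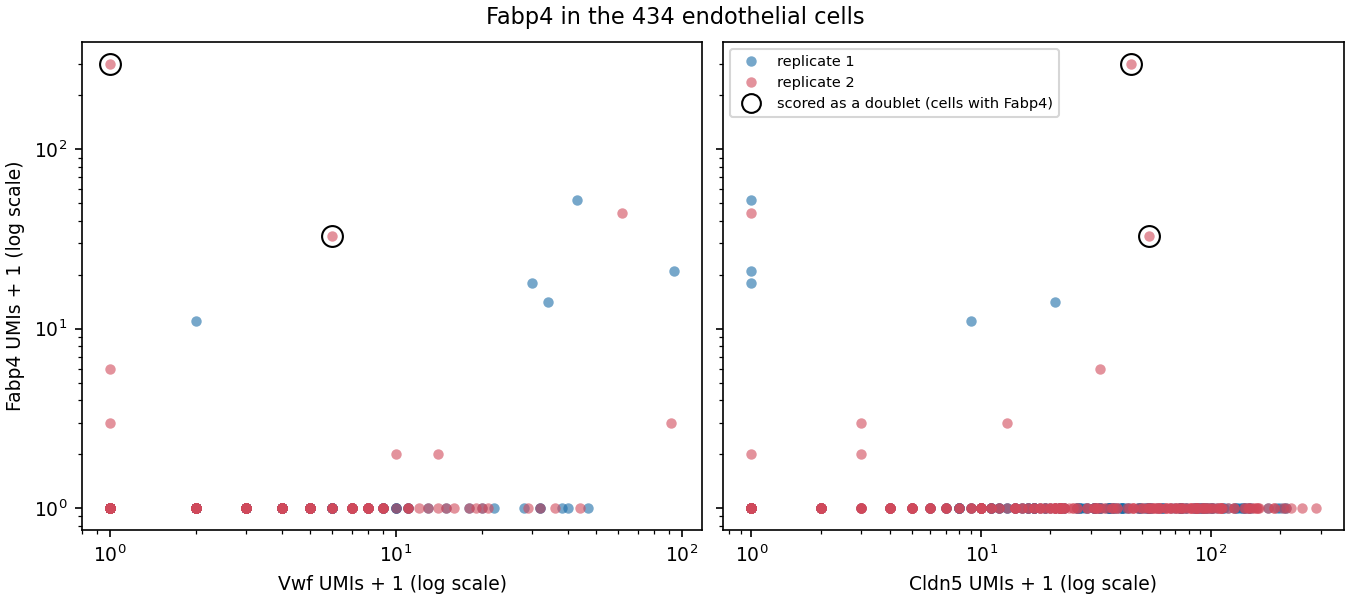
*Fabp4* UMIs against *Vwf* and *Cldn5* UMIs in the 434 endothelial cells, each plus 1 on log axes, in blue for replicate 1 and red for replicate 2, with rings on cells with *Fabp4* that were scored as doublets. The 13 cells with *Fabp4* are spread over *Vwf* counts from 0 to 93, and the cell with 298 *Fabp4* UMIs has none of *Vwf* and 44 of *Cldn5*.

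The genes whose levels over the 16 profiles (8 types in 2 samples) were most like those of each member, by Pearson's r of log2(CPM + 1), are given as a description. The profiles of a type are not independent of each other. For *Fabp7* they were *Shank2* (0.993), *Mmd2* (0.982) and *Cnmd* (0.981). For *Fabp5* they were *Sv2c* (0.972), *9330159F19Rik* (0.971) and *Luzp2* (0.970), and for *Pmp2* they were *Ddn* (0.983), *Sec14l5* (0.982) and *8430426J06Rik* (0.980). For *Fabp3* they were *Rab3a* (0.986), *Cacnb3* (0.974) and *Trappc6b* (0.973), and for *Fabp4* they were *Vsig2* and *Galnt15* (both 0.970) and *Emcn* (0.967). Between members the highest value was that of *Fabp7* and *Fabp5* (0.621) and the lowest that of *Fabp4* and *Fabp5* (-0.699).

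The genes that act before and after FABPs were followed from lists of fatty acid uptake and activation, oxidation, triglyceride storage and lipolysis, lipid-sensing nuclear receptors, and the other members of the intracellular lipid binding protein family. In SGCs 14 of 15 genes of fatty acid oxidation were higher than the mean of the other types and the remaining gene did not pass the test. Of all genes tested, 32.9% were higher and 23.4% lower in that comparison. The oxidation genes had a median log2 difference of 0.76, against 0.03 for all genes tested. The higher ones include *Acaa2* (335 and 353 CPM, difference 1.97), *Acadl* (270 and 265 CPM, 1.32) and *Hadhb* (205 and 211 CPM, 1.18), enzymes of the beta-oxidation spiral. Of 14 genes of uptake and activation, 6 were higher and 6 lower. Those 6 higher genes were led by *Acsbg1* (416 and 468 CPM, 3.96), *Dbi*, the acyl-CoA binding protein (11810 and 11221 CPM, 3.16), and *Acsl6* (21.7 and 24.5 CPM, 2.82). *Acsl1* (-5.78), *Lpl* (-4.87) and *Cd36* (-3.31) were lower, with at most 0.438 CPM of each in SGCs.

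Of 11 genes of storage and lipolysis in SGCs, 4 were higher and 3 lower, shares near those of all genes (32.9% and 23.4%). The higher ones include *Plin3* (153 and 156 CPM, 1.87) and *Plin1*, which coats lipid droplets but was at only 1.83 and 1.43 CPM. Of 11 receptors 5 were higher and 1 lower: *Ppara*, the receptor that drives oxidation genes, was at 46.7 and 53.9 CPM (2.81), *Rarb*, a retinoic acid receptor, at 126 and 103 CPM (1.99), and *Pparg* was lower (-3.96) with at most 0.179 CPM. Of the other lipid binding proteins, *Crabp1* (40.3 and 43.8 CPM, 3.85) and *Crabp2* (10.2 and 12.03 CPM, 2.63), carriers of retinoic acid, were higher in SGCs against the mean of the log2 levels, although fibroblasts held more *Crabp2* (92.7 and 79.1 CPM).

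In myelinating Schwann cells, oxidation genes were divided, with 7 of 15 higher and 3 lower (median 0.14 against -0.01 for all genes, of which 26.8% were higher and 24% lower). With equal numbers of cells per type, the genes called over all 5 lists fell from 36 to 8 in this type, from 42 to 24 in SGCs and from 41 to 25 in endothelial cells. *Hadh* (112 and 107 CPM, 0.93) and *Hadha* (148 in both samples, 0.79) were among the higher ones and *Cpt1c*, the neuronal carnitine palmitoyltransferase, among the lower (-0.84). *Mgll*, which splits monoglycerides into fatty acids and glycerol, was at 265 and 258 CPM (1.80), the highest of 4 storage genes of 11 that were higher by level, while *Lipe* (-1.62) and *Plin2* (-1.33) were lower. Of 14 uptake genes 4 were higher, with *Slc27a1* at 130 and 126 CPM (1.14) and *Acsl1* at 26.9 and 25.2 CPM (1.36), and 7 lower, led by *Acsl5* (-4.47). Receptors had 5 of 11 higher and 3 lower.

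In neurons 10 of 15 oxidation genes were lower and 2 higher (median -0.51 against 0.02 for all genes, of which 30.7% were lower and 37.2% higher). *Hadh* (-1.63) and *Acaa2* (-1.54) were lower and *Cpt1c* was higher (27.9 and 34.3 CPM, 1.72). The acyl-CoA synthetase gene *Acsl6* was at 52.2 and 40.9 CPM (3.98), the transporter gene *Slc27a4* at 33.9 and 32.5 CPM (1.97) and *Acsl5* at 33.9 and 35.0 CPM (1.56), among 6 of 14 uptake genes that were higher and 5 that were lower, *Dbi* among them (-1.68). Storage genes had 6 of 11 lower and 1 higher, with *Plin3* at -3.18, and receptors had 8 of 11 lower and 2 higher, with *Nr1h3* at -3.45 and *Rara* at -3.44.

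In endothelial cells, *Gpihbp1* had 189 and 225 CPM and *Rbp7*, a retinol binding protein of the same family, 132 and 102.5 CPM, against mean levels over the other types of 0.205 and 0.0882 CPM. *Pparg*, the receptor known from adipocyte differentiation, was at 23.0 and 41.2 CPM (4.99) and the lipase gene *Lipe* at 89.1 and 111 CPM (3.42). Of 14 uptake genes 4 were higher and 7 lower, of 15 oxidation genes 3 and 9 (median -0.35 against -0.08 for all genes, of which 26.6% were higher and 24.9% lower), of 11 storage genes 3 and 3, and of 11 receptors 6 and 3. *Cd36* was among the higher uptake genes (2.04) with 0.775 and 20.3 CPM, and 45 of its 90 UMIs in replicate 2 were in the cell with 298 *Fabp4* UMIs. Empty-droplet RNA amounted to at most 12.7% and 13.7% of endothelial UMIs and 30.2% and 40.9% of neuronal UMIs by the upper estimate, against 4.99% and 4.41% in SGCs, and its part in the list counts was not tested beyond its subtraction.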

How the data were processed

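The authors aligned reads to mm10 and counted UMIs with Cell Ranger, per the labels and the study's methods, and deposited raw UMI counts per gene and barcode for all barcodes. Whether intronic reads were counted is not given in the sources used here. All values here were computed from these counts.

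Cells were called per sample along Cell Ranger's steps (second step from 500 UMIs, 10000 simulations, false discovery rate 0.01) and needed over 300 genes. The 8816 and 8775 cells held 90.1% and 86.5% of UMIs. Both samples were clustered with SCTransform in Seurat 5.3.0 (3000 variable genes without 69 listed genes, 30 components, resolution 0.8). A cluster was named where at least 3 markers of a type were among its 50 leading genes and at least 1 among the first 10, from 93 markers of 16 classes. Clusters that were mostly doublets, of high mitochondrial share or under a mean of 1000 genes were removed, as were cells beyond 5 MAD in mitochondrial share (21.8%) or, within a type, in UMIs. The naming rule, the cutoff within types and the *Th* and *Calca* groups were chosen after the data were seen. The members and lists were chosen with earlier results of these data known. Single cells scored as doublets were kept, and 3 alternatives were added later.

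Counts were summed per sample and type into 16 profiles of 1988270 to 54684900 UMIs and tested with edgeR 4.0.16 (TMM, glmQLFit, glmQLFTest, prior count 0.125, at least 10 counts in 2 profiles, threshold 0.05), with a procedure tested on simulated counts. A chi-square test of the 2 samples over 20763 genes gave 12.6 per degree of freedom, more than counting noise gives. Same-numbered profiles were dissociated together and are paired for that reason. Across 28 type pairs, their departures from the mean of each type correlated with r between -0.0151 and 0.155 (median 0.0492, above 0.1 in 2 pairs). The share of empty-droplet RNA was the ratio of other types' marker shares in a type and in empty droplets. Coding sequences were aligned with MAFFT 7.526, and sequences and positions come from GENCODE M21 transcripts on GRCm38. Named genes were the members, their 3 most alike genes, and up to 3 genes per list and direction in the types where a member peaked, as well as marker and neighbouring genes, with a few others chosen after their values were seen. One gene of the lists is not reported here.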

Additional observations from a re-analysis of the deposited data

How the results depend on the processing

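Of 183 tests of 10 results over 19 settings, 179 kept their direction and their side of the threshold. The log2 difference of *Fabp7* in SGCs from the next type then lay between 1.76 and 2.91, that of *Pmp2* between 5.44 and 7.54, that of *Fabp3* between 1.57 and 4.199 and that of *Fabp5* between 0.30 and 0.81. The differences from the mean level elsewhere also moved. Subtraction of empty-droplet RNA, which sets low types to or near 0, gave 17.43 for *Fabp7*, 8.18 for *Fabp5*, 10.94 for *Pmp2*, 9.49 for *Fabp3* and 10.18 for *Fabp4*. Elsewhere *Fabp7* had 3.47 with unnamed clusters in the fit and 5.17 without cells scored as doublets. *Fabp3* had 3.47 with shallow neurons kept and the UMI cutoff set over all kept cells. *Fabp5* had 1.90 against all other cells summed. The 4 exceptions were *Fabp4* in endothelial against mural cells without cells scored as doublets (0.87, adjusted p = 0.192), with DESeq2 (2.21, adjusted p = 0.201) and with 54 cells of each type and sample (-0.63, reversed, adjusted p = 0.643), and *Fabp5* in SGCs against neurons with 54 cells (0.27, adjusted p = 0.305). With equal cells 9 of the neighbouring pairs passed the test instead of 14, fewer cells being part of that setting, and *Pmp2* could not be tested there, since it was below the filter on low counts. Subtraction of empty-droplet RNA gave 27 called genes of the 5 lists in endothelial cells instead of 41. Without 1 replicate the differences from the mean of the other types lay between 6.87 and 8.09 for *Pmp2*, between 8.69 and 8.75 for *Fabp4* and at 2.45 for *Fabp5*, and that of *Fabp4* from mural cells between 2.07 and 2.28, with no test. The replicate block changed no call (*Fabp4* from mural cells 2.18 with the block). The other size factors shifted the median of all genes by 0.136 in macrophages, by -0.0944 in SGCs and by less in the other types. The endothelial value of *Fabp4* rests on 13 cells with a UMI, and neuronal values on 109 cells.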

Other observations

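Other genes of the lipid binding protein family showed cell types of their own. *Fabp12*, which lies beside *Fabp4* on chromosome 3, was at 10.3 and 9.16 CPM in macrophages from 21 and 16 UMIs (adjusted p = 2.48e-08 by edgeR against the mean of the other types). *Crabp2*, a retinoic acid carrier, was at 92.7 and 79.1 CPM in fibroblasts, a log2 difference of 5.99. *Crabp1* in neurons differed between the samples, with 43.4 and 2.62 CPM in replicates 1 and 2 from 257 and 15 UMIs, whereas in SGCs it was at 40.3 and 43.8 CPM. *Fabp1*, *Fabp2*, *Fabp6* and *Fabp9* had between 0 and 3 UMIs per type and sample and were not tested.

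In macrophages, some fatty acid handling genes were higher than the mean of the other types. *Cd36* was at 707 and 494 CPM (log2 difference 8.62, adjusted p = 2.27e-15), *Pparg* at 96.9 and 96.8 CPM (6.80) and *Lpl*, the lipoprotein lipase, at 95.9 and 45.8 CPM (4.99), all past the edgeR threshold. *Lpl* was also high in fibroblasts, at 99.9 and 109 CPM (5.60), and in mural cells, at 64.6 and 73.7 CPM (4.92).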
